A study of Mus musculus with 6 samples.

Results

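Peaks of the transcription factor E2F1 were examined at 10 genes of the cohesin complex in mouse NIH/3T3 cells, an established line of embryonic fibroblasts, by chromatin immunoprecipitation and sequencing (ChIP-seq). The genes were the ring subunits Smc1a, Smc3 and Rad21, the ring-bound subunits Stag1 and Stag2, the regulators Pds5a, Pds5b and Wapl, and the establishment factors Esco2 and Cdca5, out of 21887 protein-coding genes. A peak was assigned to a gene when it lay inside the gene's span on the mouse assembly GRCm38 or within 1000 bp of it. The lists held 10 such peaks among 7836 in E2F1 replicate 1, 11 among 8027 in E2F1 replicate 2, 0 among 70 in empty vector (EV) replicate 1 and 1 among 358 in EV replicate 2.

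Cells of the E2F1 group carried a doxycycline-inducible E2F1 construct and cells of the EV group the same kind of construct without E2F1, both stably integrated. Per the labels, all were held for 48 hours in 0.25% serum, which brings fibroblasts close to a resting state. Per the same labels, growth serum was 10% and all were collected after 12 hours of doxycycline. The labels give 500 ng/ml of doxycycline, while the names of the deposited lists carry the number 200 without a unit, so the dose is uncertain. Neither the number of clones nor the antibody is given in the sources used here, and nothing says that the 2 libraries of a group came from separate cultures. The EV cells received doxycycline as well, so the groups differ in the construct and not in the drug.

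Cohesin is a ring of SMC1A, SMC3 and RAD21 that holds sister chromatids together from their replication until anaphase and that also extrudes chromatin loops. A STAG protein binds the ring and is needed for its loading on chromatin. PDS5 proteins act with WAPL to open the ring and release it from DNA. In S phase ESCO2 acetylates SMC3, after which sororin, the product of Cdca5, counteracts WAPL. E2F1 is an activator of genes needed for entry into S phase and binds DNA as a dimer with a DP protein.

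The peaks were read against the promoter sequences they covered. RefSeq promoter windows of GRCm38.p6, from 250 bases before to 50 bases after an annotated start, were at hand for 7 of the 10 genes. Rad21, Stag2 and Esco2 had none. The E2F motif searched was any of TTTCCCGC, TTTCGCGC, TTTGGCGC and TTTGCCGC on either strand. Also searched on both strands were the cell cycle homology region (CHR) elements TTTGAA and TTCGAA, which are known from promoters of mitotic genes, and the CCAAT box CCAAT. The 5 windows printed here are those with an E2F motif (Pds5a, Stag1 and Smc1a), that with 2 CHR elements (Cdca5) and that of the member with the largest pileup, which held neither (Smc3). Each is written 5′ to 3′ on the strand of its gene, with E2F motifs and CHR elements in capitals. They lie at chr5:65698187-65698486 on the minus strand (Pds5a), chr9:100643198-100643497 (Stag1), chrX:152016178-152016477 (Smc1a), chr19:6084847-6085146 (Cdca5) and chr19:53600146-53600445 (Smc3), the last 4 on the plus strand.
Pds5a: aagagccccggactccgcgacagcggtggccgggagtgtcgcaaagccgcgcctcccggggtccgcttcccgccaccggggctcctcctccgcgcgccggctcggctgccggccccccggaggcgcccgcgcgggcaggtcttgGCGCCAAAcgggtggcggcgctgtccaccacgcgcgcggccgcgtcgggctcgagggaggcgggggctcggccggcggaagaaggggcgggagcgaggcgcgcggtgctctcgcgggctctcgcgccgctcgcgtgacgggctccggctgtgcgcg
Stag1: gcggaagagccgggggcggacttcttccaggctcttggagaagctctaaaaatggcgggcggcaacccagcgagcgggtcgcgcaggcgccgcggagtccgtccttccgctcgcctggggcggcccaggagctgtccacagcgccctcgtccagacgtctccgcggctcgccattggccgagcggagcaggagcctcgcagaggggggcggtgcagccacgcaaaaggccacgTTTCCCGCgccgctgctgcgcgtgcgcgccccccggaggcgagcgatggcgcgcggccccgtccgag
Smc1a: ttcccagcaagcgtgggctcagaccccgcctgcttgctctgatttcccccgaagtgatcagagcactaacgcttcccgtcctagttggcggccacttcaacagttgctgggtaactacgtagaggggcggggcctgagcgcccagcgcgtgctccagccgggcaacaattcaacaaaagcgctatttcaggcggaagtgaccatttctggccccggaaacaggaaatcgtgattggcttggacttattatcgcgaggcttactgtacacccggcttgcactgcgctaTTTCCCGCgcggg
Cdca5: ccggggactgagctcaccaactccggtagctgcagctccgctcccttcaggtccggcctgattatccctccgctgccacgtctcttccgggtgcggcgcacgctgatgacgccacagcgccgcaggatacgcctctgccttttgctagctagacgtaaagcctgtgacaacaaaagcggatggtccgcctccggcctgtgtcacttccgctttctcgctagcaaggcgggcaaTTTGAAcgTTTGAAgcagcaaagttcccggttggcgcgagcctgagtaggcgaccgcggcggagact
Smc3: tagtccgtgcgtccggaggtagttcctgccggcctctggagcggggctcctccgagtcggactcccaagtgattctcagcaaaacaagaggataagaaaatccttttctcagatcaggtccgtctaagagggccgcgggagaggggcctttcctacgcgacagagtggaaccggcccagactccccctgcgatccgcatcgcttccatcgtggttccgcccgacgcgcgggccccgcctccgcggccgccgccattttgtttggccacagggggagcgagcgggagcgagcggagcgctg

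The E2F motif was matched once each in the windows of Pds5a, Stag1 and Smc1a, which makes 3 of 7 windows. The share over all 32851 promoter windows of the table, which include genes that do not code for protein, was 2.26%. It was 2.9% over the 21263 windows of protein-coding genes and 5.89% over the 6993 windows that a peak of both E2F1 lists overlapped. In Pds5a the match lay 60 bp from the summit of the peak in replicate 1 and 30 bp from that in replicate 2, on the opposite strand (GCGCCAAA as printed) within a palindrome whose other arm, TTGGCGC, lacks the first T. The Smc1a match lay 190 bp and 325 bp from the summits, and the Stag1 match 617 bp and 772 bp, so the matches in these windows were not all close to the highest signal. All 3 matches lay inside the peaks of both lists. Without the first T of the motif, 5 of 7 windows had a match, with Pds5b and Cdca5 added. The shares were 9.57% of all windows, 12.1% of those of protein-coding genes and 23.6% of those overlapped by both E2F1 lists. Smc3 and Wapl had none in either form, which says only that these letters are missing from the 300 bases searched.

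The windows were rich in CpG. They held a median of 35 CpG dinucleotides and 67% GC. The medians were 27 and 65.7% in the windows overlapped by both E2F1 lists, 13 and 56.3% in those of protein-coding genes and 7 and 52.7% in all windows. Of the 7 windows Pds5a had the most, 55 CpG at 80.3% GC, and Smc1a the fewest, 23 at 58.3%. CHR elements were found in 2 of 7 windows, against 19.2% of all and 11.1% of those overlapped by both lists: 2 matches to TTTGAA at Cdca5, 17 and 9 bases before the annotated start, and 1 at Pds5b. A CCAAT box was found in 4 of 7, at Pds5b, Stag1, Wapl and Smc1a, against 37.4% of all and 35.9% of those overlapped.

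All 10 genes had a peak in both E2F1 lists. The same held for 7537 of all 21887 protein-coding genes, a background of 34.4%, and for 41.5% of the 15333 genes whose spans were as long as those of the shortest to the longest member, 6677 to 360836 bp. At each of the 10 genes the peaks of both lists overlapped, and no EV peak overlapped any of them. A peak in either EV list was found at 1 of the 10 genes, beside a background of 0.434%, with 0 of 10 against 0.0366% in EV replicate 1 and 1 of 10 against 0.407% in EV replicate 2. The members were chosen with results of these data known, so their count has no test, and 2 libraries against 2 could not give a two-sided permutation p below 0.333.

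Fold enrichment is the authors' value for each peak, the read pileup at the summit over the local background. Pileup and background were recovered from the deposited fold and p-value of each peak, and the lowest background of a list served as its genome-wide level and as the measure of its depth. That level was 1.85 and 1.86 reads in E2F1 replicates 1 and 2, 2.20 in EV replicate 1 and 1.18 in EV replicate 2. Each list ends at a −log10 p-value of 10. At its genome-wide background a site needed a pileup of 17 reads, a fold of 5.63, to be listed in EV replicate 1, and 13 reads, a fold of 6.43, in EV replicate 2. Where the local background is higher, more reads but a lower fold are needed. The median folds of the listed peaks were 3.86 in EV replicate 1 and 4.88 in EV replicate 2. A gene without an EV peak may still have had signal below the limit of the lists.

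**Figure D1:**
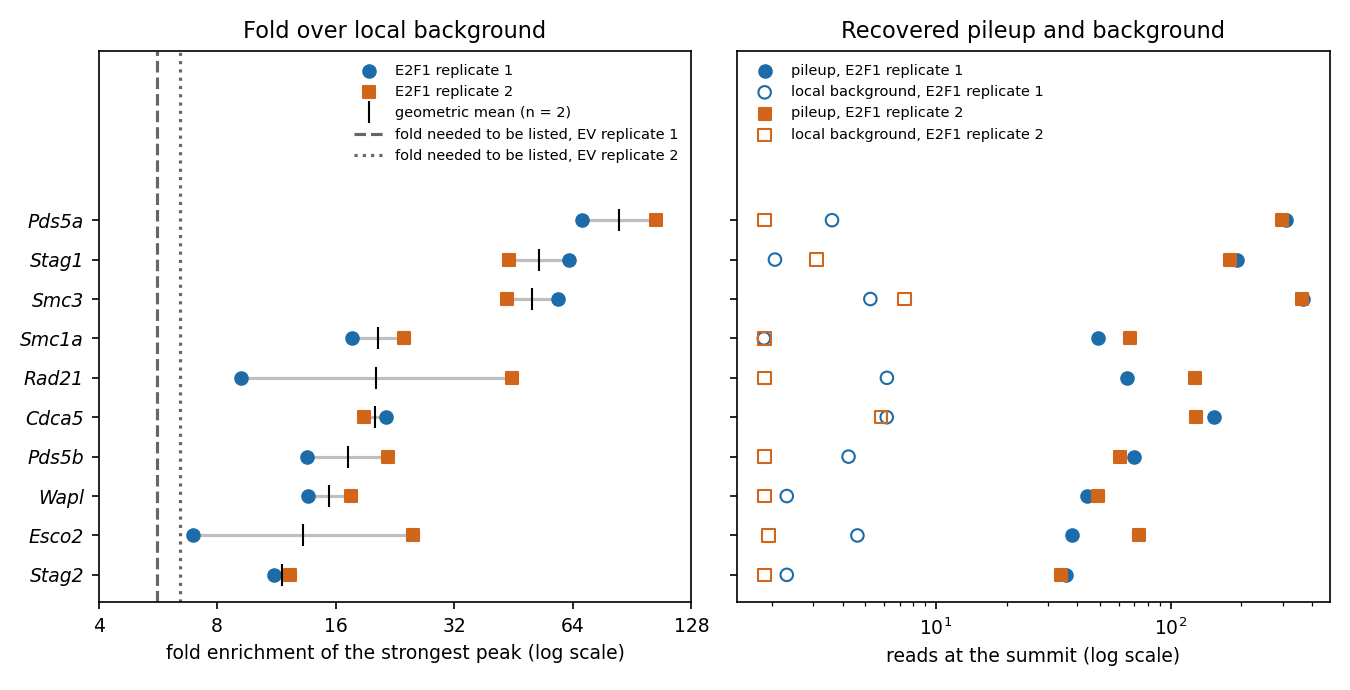
Left, authors' fold enrichment of the strongest peak (log scale) of each cohesin gene in the E2F1 lists, with the geometric mean of n = 2 libraries as a black bar and the fold a site at the genome-wide background needed to be listed in each EV library as vertical lines. Right, recovered read pileup (filled) and local background (open) at the same summits, in reads on a log scale. Pds5a, Stag1 and Smc3 have the highest mean folds, Rad21 at 44.8 in replicate 2 reaches the level of Stag1 and Smc3 in that list, and the pileups of both libraries lie close together at 7 of 10 genes.

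Among the ring subunits Smc3, which carries the lysines that ESCO2 acetylates, had the largest pileup of the 10 genes. It was 366 reads in E2F1 replicate 1 and 362 in E2F1 replicate 2. The folds were 58.7, rank 12 of 7836, and 43.4, rank 314 of 8027. Pileups thus agreed more closely than folds, and the local background below them was 5.26 and 7.36 reads. The peak spanned chr19:53599999-53601635 in replicate 1 and chr19:53599945-53601593 in replicate 2, with widths of 1637 and 1649 bp. Its summits lay 164 and 214 bp before the annotated start of Smc3, outside the transcribed span, which runs from 53600396 to 53645831.

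Smc1a, the partner of Smc3 in the ring, had a weaker peak at the start of its span (chromosome X, 152016428 to 152061973). Its fold was 17.6 in replicate 1 and 23.8 in replicate 2, with pileups of 49 and 67 reads. The local background equalled the genome-wide level in both lists. The summits lay 230 and 365 bp downstream of the annotated start. The peak also lay over the upper boundary of Ribc1, whose span (152004580 to 152016886) overlaps that of Smc1a, so it cannot be assigned to either gene by position.

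Rad21, the cleavable subunit that closes the ring, differed most between the libraries. The fold was 9.19 in replicate 1, rank 3919, and 44.8 in replicate 2, rank 284, a ratio of 4.88. The pileup was 65 and 127 reads, a ratio of 1.95, and the local background was 6.18 reads in replicate 1 against 1.86 in replicate 2. The summits, 506 bp apart, were the most distant pair among the 10 genes. They lay 2322 and 1816 bp inside the upper boundary of the Rad21 span (chromosome 15, 51962604 to 51993538). The peak overlapped the predicted gene Gm52217 (51990975 to 51996565) as well, with summits nearer to a boundary of that gene, at 241 and 747 bp. By position it cannot be assigned to either gene.

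The STAG genes, whose products are alternative partners of the ring, stood at opposite ends of the order. Stag1 had folds of 62.7 (rank 9) and 44.2 (rank 299) with pileups of 191 and 180 reads. Stag2 had folds of 11.2 (rank 2941) and 12.2 (rank 3677) with pileups of 36 and 34 reads. Both values of Stag1 exceeded both values of Stag2. The Stag2 folds were close to the median of all protein-coding genes with peaks in both lists, 11.5.

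The Stag1 peak did not lie at a boundary of the gene's span (chromosome 9, 100597709 to 100958544) but far inside it, with summits 46342 and 46497 bp from the lower boundary. The annotated RefSeq start of the promoter table lies there too, at 100643448, and the peak covered all 300 bases of that window in both lists. Its width was 2830 bp in replicate 1 and 2226 bp in replicate 2, wider than 98.3% and 98.2% of the peaks of those lists. At Stag2 (chromosome X, 42149297 to 42277186) replicate 1 had 1 peak of 1696 bp. Replicate 2 listed 2 peaks. The first, of 518 bp, lay inside that interval. The second, of 1365 bp, began inside it and ran to 42151137, past its end at 42150473. The second of them had a fold of 4.56 and a −log10 p-value of 10.5, just above the limit of the list.

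Of the genes that act on the ring's release, Pds5a had the highest fold of the 10. They were 67.5, rank 4 of 7836, and 104, rank 6 of 8027, with pileups of 310 and 297 reads. The summits lay 162 and 132 bp before the annotated start, 30 bp from each other, which was the closest pair of the 10. The peak was 3166 bp wide in replicate 1, from 65696181 to 65699346 on chromosome 5, and 1774 bp wide in replicate 2, from 65697006 to 65698779.

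Its paralog Pds5b had folds of 13.5 and 21.7 with pileups of 70 and 61 reads, below both values of Pds5a. The summits lay 138 bp downstream of the annotated start in replicate 1 and 144 bp upstream of it in replicate 2. The span of Pds5b (chromosome 5, 150673713 to 150810669) overlaps that of the predicted gene Gm40353, and the peak lay over both. Wapl, the release factor itself, had folds of 13.6 and 17.5 with pileups of 44 and 49 reads. Its summits lay 164 bp downstream and 113 bp upstream of the annotated start at 34673928, where the non-coding gene 5830448L01Rik overlaps the span of Wapl (chromosome 14, 34672379 to 34747983).

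Wapl was also the 1 member with an EV peak. EV replicate 2 listed a peak at chr14:34708258-34709258, 34931 bp downstream of the annotated start and inside the gene. The fold was 4.74, rank 187 of 358, and the pileup was 21 reads over a local background of 3.64, which was 3.09 times the genome-wide level. The −log10 p-value of 10.2 was just above the limit of the list. Neither E2F1 list nor EV replicate 1 had a peak there, so it has no replicate.

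Cdca5, which encodes sororin, had a peak with folds of 21.5 and 18.8 in the libraries at the start of its short span (chromosome 19, 6085097 to 6091773). The pileups were 153 and 128 reads, the fourth highest mean of the 10, over raised local backgrounds of 6.17 and 5.84 reads. The summits lay 127 and 30 bp downstream of the annotated start. The 2 CHR elements were 142 and 134 bp from the summit in replicate 1 and 45 and 37 bp from it in replicate 2. The peak overlapped the upper boundary of the neighbouring zinc finger gene Zfpl1 (6080757 to 6084975) too.

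Esco2, the S-phase acetyltransferase of SMC3, had the second largest ratio of folds between the libraries, 3.64. The fold was 6.93 in replicate 1, rank 5450, the lowest of the 10 genes in that list, and 25.2 in replicate 2, rank 1194. The pileup was 38 and 73 reads, and the local background was 4.63 reads in replicate 1 and 1.94 in replicate 2. The peak lay at the upper boundary of the span (chromosome 14, 65819027 to 65833969), with summits 187 and 49 bp inside it. With widths of 477 and 617 bp it was narrower than the median peaks of the lists, 938 and 814 bp.

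**Figure D2:**
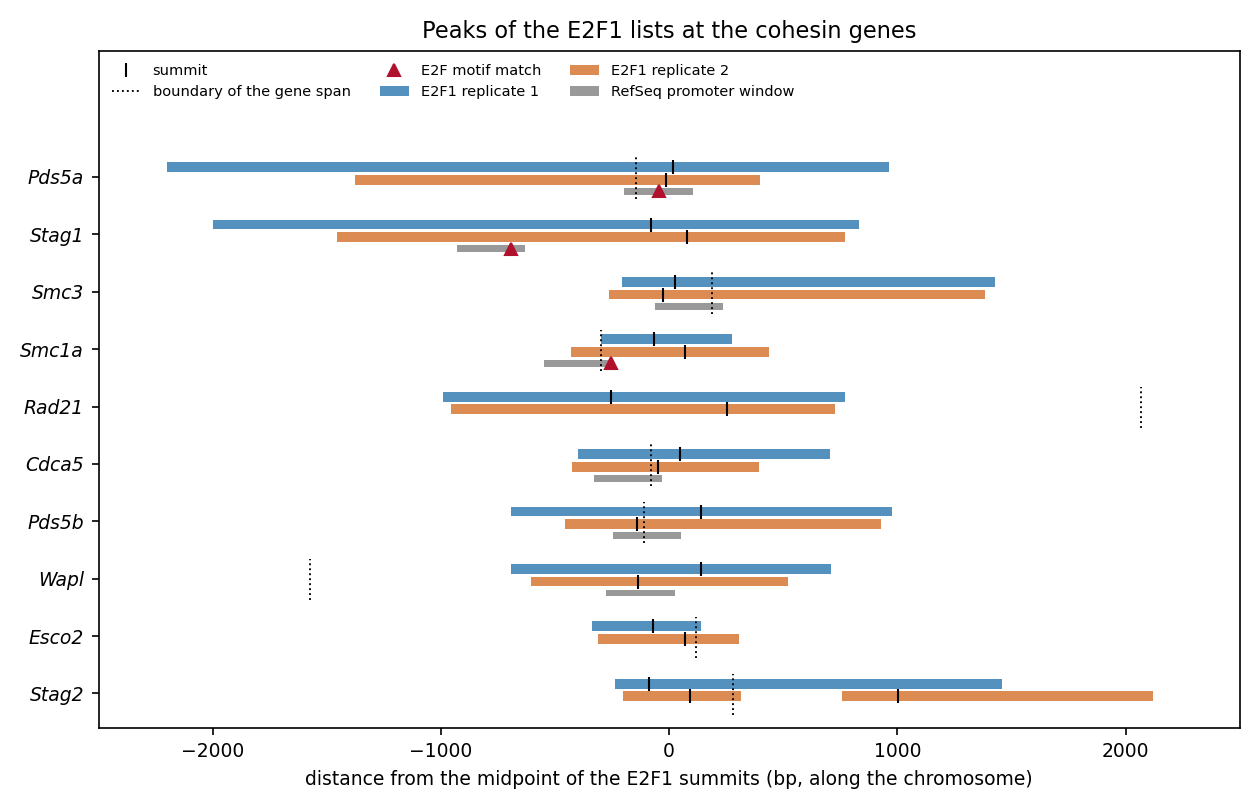
Intervals of the E2F1 peaks (bars) and their summits (black ticks) at each cohesin gene, as distance in bp along the chromosome from the midpoint of the summits of the strongest peaks. Grey bars are RefSeq promoter windows, triangles E2F motif matches and dotted lines boundaries of the gene span, where they fall within the plot; the peaks of both lists overlap at all 10 genes, and at Rad21, Wapl and Stag1 the summits lie away from the boundary.

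In position the peaks were much alike. At 7 of 10 genes the summits of the strongest peaks came within 1000 bp of a boundary of the span in both lists, the exceptions being Rad21, Stag1 and Wapl. Summits so placed were not counted over all genes. Another measure took a peak, not its summit, within 1000 bp of a RefSeq start. By it 9 of 10 members and 7016 of 21887 protein-coding genes passed in both lists. By the whole span 10 of 10 members and 7537 of all protein-coding genes did. Genes without a listed start were read at either boundary. All 7 promoter windows were overlapped by a peak of both E2F1 lists, against 21.3% of the windows in the table and 29.4% of those of protein-coding genes. In both lists 6 of the 7 were covered from end to end, a share that was not counted over the table. At Smc1a the peak of replicate 1 covered 51 bases of the window and that of replicate 2 181 bases. Summits of the libraries were within 200 bp of each other at 7 genes and at most 506 bp apart. The peaks at 7 genes were wider in replicate 1, and the median widths of 1654 and 1254.5 bp exceeded the list medians.

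In the order of mean log2 fold over n = 2 libraries, Pds5a came first at 6.39 ± 0.44 (SD). Stag1 followed at 5.72 ± 0.36 and Smc3 at 5.66 ± 0.31. Next came Smc1a at 4.35 ± 0.31, Rad21 at 4.34 ± 1.62 and Cdca5 at 4.33 ± 0.13. The lower end was formed by Pds5b at 4.10 ± 0.48, Wapl at 3.95 ± 0.26, Esco2 at 3.72 ± 1.32 and Stag2 at 3.55 ± 0.09. Of the 9 neighbouring pairs in this order, the values of the libraries overlapped in 7. The pairs whose values did not overlap were Pds5a over Stag1, by 0.67, and Smc3 over Smc1a, by 1.30. The first 3 genes were thus set apart from the other 7 in mean, while Rad21 in replicate 2 alone reached the level of Smc3 and Stag1.

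In mean log2 fold all 10 genes lay above the median of the 7537 genes with peaks in both lists, which was 3.52. Within a library 8 did so in replicate 1, all but Rad21 and Esco2, and 9 in replicate 2, all but Stag2. The median of the 10 was 4.34, a fold of 20.2 against 11.5. Both medians are descriptions of genes that passed the limit of the lists. By rank among all peaks of a list, 8 genes had a fold above the list's median in replicate 1 and 10 in replicate 2, with median percentiles of 78.8 and 84.2. Those in the top 10% of both lists were Pds5a, Stag1 and Smc3, joined by Cdca5 in replicate 1 and Rad21 in replicate 2.

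**Figure D3:**
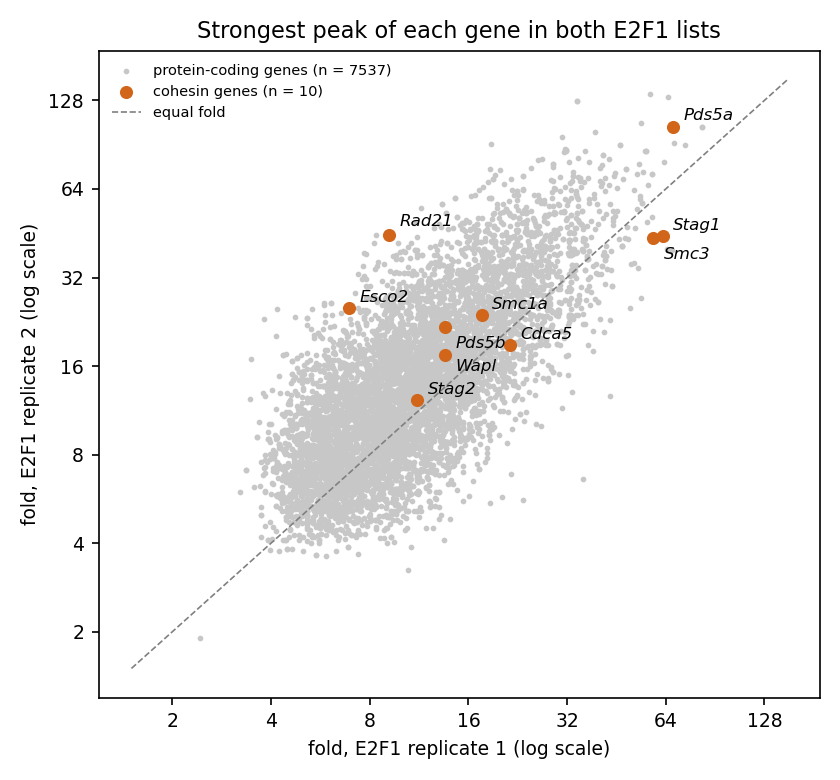
Authors' fold of the strongest peak in E2F1 replicate 1 (x) and replicate 2 (y), both log scales, for the 7537 protein-coding genes with a peak in both lists (grey) and the 10 cohesin genes (orange), with a dashed line of equal fold. Rad21 and Esco2 lie far above the line, at 9.19 against 44.8 and 6.93 against 25.2, and Stag1, Smc3 and Cdca5 below it.

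The libraries ordered the 10 genes more alike by pileup than by fold. Spearman's rho over the 10 genes was 0.88 for pileup and 0.36 for fold. Over the 7537 genes it was 0.71 for fold and was not computed for pileup. These values describe points that share 2 libraries. Pileups of the libraries were within 1.2 times of each other at 7 genes, and folds at 2, Stag2 and Cdca5. The exceptions in pileup were Smc1a, Rad21 and Esco2, each higher in replicate 2. The local background was higher in replicate 1 at 7 of the 10 genes. It was so by 3.33 times at Rad21, 2.39 at Esco2, 2.28 at Pds5b and 1.94 at Pds5a. Its part in the fold is set by the definition of fold, pileup plus 1 over background plus 1.

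Other genes were read in the same way, from a list of 27 written with earlier results of these data known. It holds 22 genes of the cohesin cycle and its meiotic form and 5 related SMC genes that act in other complexes. Of the 22, 16 had a peak in both E2F1 lists, and of all 27, 21, beside the background of 34.4%. None of the 27 had a peak in either EV list. In mean log2 fold 16 of the 21 lay above 3.52, the median of all protein-coding genes with peaks in both E2F1 lists. The median of the 21 was 3.96, beside 4.34 over the 10 members. The loading complex had peaks at both genes. Nipbl, the loader, had folds of 14.8 and 10.4 in an interval of 3940 and 2892 bp. The strongest peaks at its partner Mau2 lay at different sites, with a fold of 6.64 in replicate 1 and 5.31 in replicate 2. A weaker peak of replicate 1, with a fold of 4.03, overlapped that of replicate 2.

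All 7 genes that link cohesion to the replication fork had peaks in both E2F1 lists, beside the background of 34.4%. Timeless, of the fork protection complex, was the highest with folds of 36.3 and 34.0. Chtf18, the large subunit of an alternative clamp loader, was the lowest with 6.11 and 5.19. Of the 2 genes of the acetylation cycle 1 had peaks in both E2F1 lists, too few genes to set against that background. Esco1, the paralog of Esco2, had folds of 6.32 and 13.9. Hdac8, which deacetylates SMC3, had no peak in any list, which is no result about this gene.

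Both shugoshin genes, whose products protect centromeric cohesin in mitosis, had peaks in both E2F1 lists, beside the background of 34.4%. Sgo1 had folds of 14.9 and 17.8 and Sgo2a of 12.5 and 10.1. Among the genes of cohesin removal 3 of 4 had peaks in both E2F1 lists, beside the same background. Aurkb, a mitotic kinase, was the highest with 32.1 and 17.5 and Plk1, another one, the lowest with 7.16 and 12.0. Pttg1, which encodes the inhibitor of separase, had no peak in any list, which is no result about this gene. Ctcf, the insulator protein at which cohesin halts on chromatin, had folds of 30.4 and 70.2, a mean log2 fold of 5.53 beside the 5.66 of Smc3.

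The meiotic subunits Smc1b, Rec8, Rad21l and Stag3, which replace Smc1a, Rad21 and the Stag genes in germ cells, had no peak in any of the 4 lists. With a background of 34.4% most protein-coding genes lack peaks in both E2F1 lists, so 0 of 4 is no result about these genes. Their paralogs of somatic cells, Smc1a, Rad21, Stag1 and Stag2, had peaks in both E2F1 lists. The counts of 0 of 4 and 4 of 4 were not compared by a test, since both sets were chosen with results known.

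**Figure D4:**
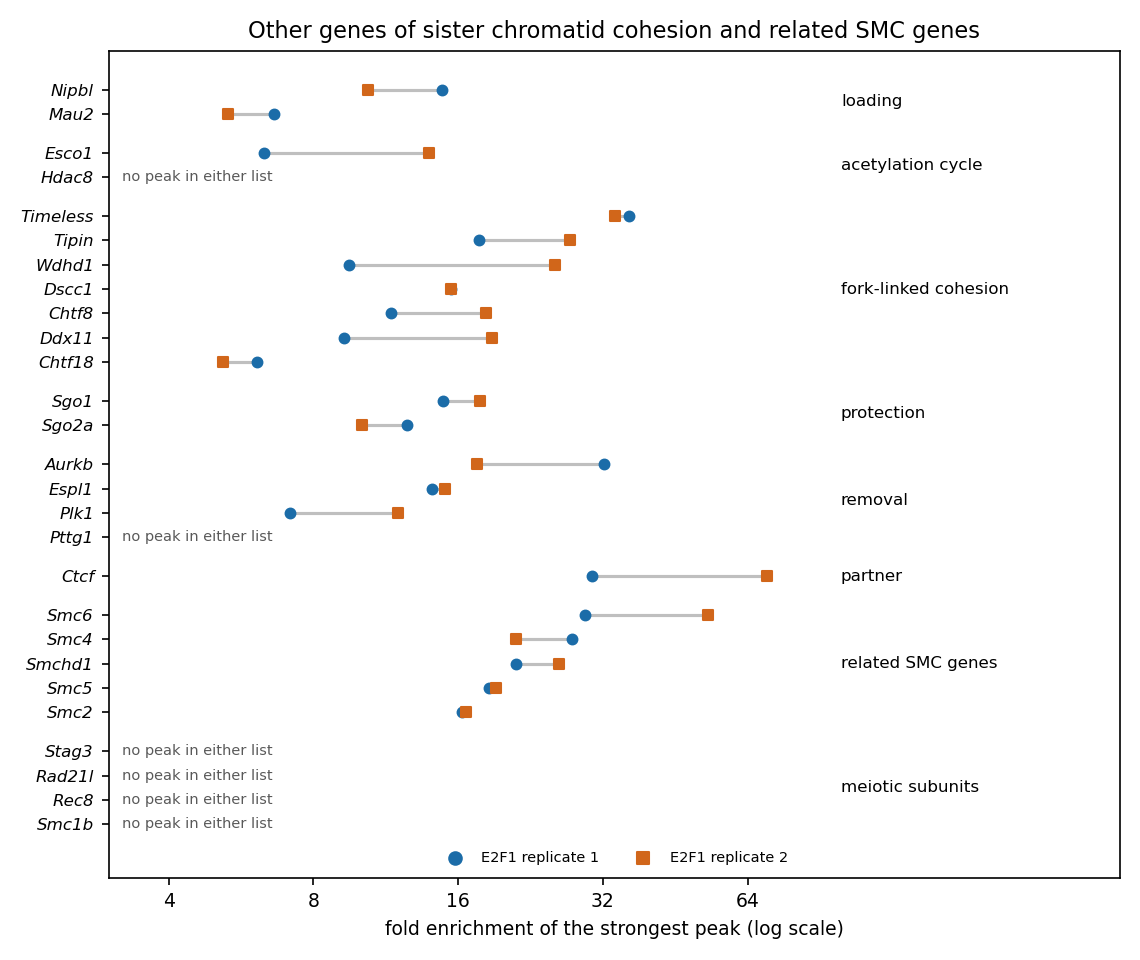
Authors' fold enrichment of the strongest peak (log scale) in E2F1 replicates 1 and 2 for 27 other genes of cohesion and related SMC genes, grouped by role. Genes without a marker have no peak in either E2F1 list: the 4 meiotic subunits, Hdac8 and Pttg1.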

How the data were processed

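E2F1 ChIP-seq had 2 E2F1 and 2 EV libraries, grouped by title, and 2 input libraries not analysed here. Both inputs are titled as EV cells, and no input is titled as E2F1 cells. Per the submitters' processing notes, FastQC, Trimmomatic, Bowtie2, MACS2 and ChIPseeker were used with mm10. Their versions and settings, the control of each list and the antibody are not given in the sources used here, and the labels' protocols describe RNA only. Each library has its own list in the narrowPeak layout. Its columns, as the authors deposited them, hold a score (the −log10 q-value times 10, cut to a whole number), the fold or ratio of pileup to local background, and p- and q-values as −log10. Lists end at a −log10 p-value of 10, so weaker sites are missing.

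Gene spans came from RefSeq of GRCm38.p6, and promoters from its promoter table, matched by gene ID. The orientation of promoter sequences was checked on 1839 overlapping windows of opposite strands, all of them reverse complements. Peaks touching a span extended by 1000 bp were assigned to the gene, and the peak with the highest fold stood for it. Pileup was solved from fold, as pileup plus 1 over background plus 1, and the Poisson upper tail, and tested on simulated data. Whole reads within 5% of a step came out for 99.99% and 99.98% of the peaks of the E2F1 libraries, 95.7% of EV replicate 1 and 99.7% of EV replicate 2. Members, lists and alternatives were chosen with earlier results of these data known. All 10 members are named. Of the other genes, those with the highest and lowest mean log2 fold in each role group, those lacking a peak and those sharing a member's peak are named. Python 3.11.15, pandas 2.3.3 and scipy 1.17.1 were used.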

Additional observations from a re-analysis of the deposited data

How the results depend on the processing

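Of 35 alternatives to counts and shares, 32 kept the value within 1.5 times. Of 10 alternatives to the median log2 fold and the median percentile of the members, 7 kept it within 1 SD between the libraries. Those among the 7 that left out 1 E2F1 library are little of a check. With n = 2 an average over both lists, as for the percentile, always lies within 1 SD of either list. For the median log2 fold this nearly holds. The alternatives that moved were changes of measure, to score or recovered pileup. The count of 10 members with peaks in both E2F1 lists was 10 with windows of 0, 500 and 2500 bp. The background shares there were 32.9%, 34% and 35.5%. In each E2F1 list alone the count was also 10, beside 36.9% in replicate 1 and 38.2% in replicate 2. The window of 2500 bp and the single lists could give no lower count, so their place among the 32 is no sign of stability. The count was 9, without Rad21, for peaks within 1000 bp of an annotated start, beside a background share of 32.1%. Where no start was at hand (Rad21, Stag2 and Esco2), either boundary of the span was used. At or above the median score of the lists the count was 8, without Stag2 and Esco2. The background share moved from 34.4% to 17.1% at that score. The members with an EV peak ranged from 0 to 1 when 1 EV library was left out, with 0 without EV replicate 2. The median log2 level of the members was 5.38 as recovered pileup over the genome-wide background, another scale than the 4.34 of fold. The median percentile of the members, averaged over both E2F1 lists, was 81.5 by fold, 77.6 by score and 76.9 by recovered pileup. The promoters with an E2F motif rose from 3 to 5 without the first T, a shorter motif. No paired analysis was possible because no EV peak overlapped a member's E2F1 peak, which leaves no EV value to pair with it, and no test was run. The limit of the lists leaves weak sites unseen. EV replicate 2 was the shallowest library only as judged by its recovered genome-wide background of 1.18 reads.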

Other observations

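The related SMC genes of the list, which build condensin, the SMC5/6 complex and an SMC protein of the inactive X chromosome, had peaks in both E2F1 lists at 5 of 5 genes, beside a background of 34.4% of protein-coding genes. Smc6 was the highest, with folds of 29.4 and 53.0 in the E2F1 libraries. Its pileups there were 210 and 216 reads. Its partner Smc5 had folds of 18.5 and 19.2. Of the condensin pair, Smc4 had 27.7 and 21.1 and Smc2 had 16.3 and 16.6, the lowest of the group. Smchd1 had 21.1 and 25.9. None of them had a peak in either EV list.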
